A study of Arabidopsis thaliana with 21 samples.

Results

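Metallothioneins are small, cysteine-rich proteins that hold copper, zinc and cadmium ions through the sulfur atoms of their cysteines. In *Arabidopsis*, type 1 metallothioneins are encoded by *MT1A* and *MT1C*, type 2 by *MT2A* and *MT2B*, and type 3 by *MT3*. They buffer copper in shoots and roots and take part in its release from senescing leaves, and type 4 members store metals in seeds. *At*GRP7 is a glycine-rich protein with an RNA recognition motif whose transcript follows the circadian clock, and the exchange of a conserved arginine of that motif in the *At*GRP7 R49Q variant impairs its binding to RNA.

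Crosslink (XL) sites of *At*GRP7 were described in 5 metallothionein genes, *MT1A* (AT1G07600), *MT1C* (AT1G07610), *MT2A* (AT3G09390), *MT2B* (AT5G02380) and *MT3* (AT3G15353). A site belonged to one of these genes when the authors had assigned it to a transcript of that gene, intron entries included. Over 21 iCLIP libraries, 1051 of 315156 listed sites fell in these genes, at 329 of 146241 distinct combinations of position and transcript. *MT2A*, *MT2B* and *MT3* held all of them, so that 3 of the 5 genes had a site, and *MT1A* and *MT1C* had none in any library.

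In iCLIP, UV light links protein to RNA in the living plant, the tagged protein is precipitated, and reverse transcription stops next to the linked base. *At*GRP7-GFP plants carried *At*GRP7 fused to GFP under the *At*GRP7 promoter in the *grp7-1* mutant, with 5 libraries after 36 h in continuous light (LL36) and 3 after 24 h (LL24). The controls were GFP-only plants, with GFP under the same promoter in Col-0 (5 libraries at LL36 and 3 at LL24), and *At*GRP7 R49Q-GFP plants, the variant in *grp7-1* (2 libraries at LL36 and 3 at LL24). All plants grew for 16 days at 20 °C with light and dark periods of 12 h each, and the aerial parts of 18-day-old plants were crosslinked at 254 nm with 500 mJ/cm2, each library from several plants pooled. The transgene promoter limits both fusion proteins to cells in which the *At*GRP7 promoter is active.

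Each deposited value is a crosslink count. It gives how many distinct reads begin right behind a position, and only positions that passed the authors' false discovery rate in their transcript region are listed. A position that is not listed may therefore have had crosslinks. In the study's methods, crosslinks of neighbouring bases were added up before this rate was determined. A base beside a strong site can therefore be listed with few crosslinks of its own. Unbroken runs of listed bases, and site densities, may follow in part from this rule. The *At*GRP7-GFP libraries listed 27112 to 85904 sites at LL36 and 8109 to 25115 at LL24, the GFP-only libraries 21 to 293, and the *At*GRP7 R49Q-GFP libraries 12 to 2721. The photosynthetic genes *RBCS1A*, *CA1* and *LHCB1.1*, which mark green tissue, had sites in all 8 *At*GRP7-GFP libraries, and the root genes *IRT1* and *NRT2.1* in none, while the root gene *PYK10* had up to 75 sites in 6 of them. Transcripts of *At*GRP7 itself had 214 to 355 sites in the *At*GRP7-GFP libraries at LL36 and 0, 3 and 0 at LL24. A site was called reproducible when the same position was listed in at least 4 of 5 libraries, in at least 2 of 3, or in both of 2. Coordinates refer to TAIR10.1, the first base being 1, and distances run along the first gene model.

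For each region that held reproducible sites, the bases around the reproducible site with the highest mean count at LL36 are shown first, since they carry the pattern described below. They come from the TAIR10.1 genome, all from the minus strand, run 5′ to 3′ with 10 nt on either side, and have the XL base in capitals.
MT2A 5′ UTR (chr3:2890202-2890222): aaauuuuucuUcaauuugaau
MT2A coding exon (chr3:2890143-2890163): gauguggaucUggcugcaagu
MT2A 3′ UTR (chr3:2889547-2889567): uuuagaugucUagcaacucug
MT2A 3′ UTR, the highest reproducible site more than 20 nt away (chr3:2889522-2889542): gugaugaguuUguacuuccag
MT2B coding exon (chr5:506778-506798): aaugcggaucUgacugcaagu
MT2B 3′ UTR (chr5:506616-506636): uguguguguuUuuaugguuug
MT3 3′ UTR (chr3:5180717-5180737): aguaugguguGauguaauggg
The XL base was a uridine in 6 of the 7 windows and a guanosine in *MT3*. The 2 coding windows share their second part, from ggauc onward, except for 1 base.

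*MT2A*, *MT2B* and *MT3* had XL sites in *At*GRP7-GFP plants and almost none in the controls. At LL36, *MT2A* had 151, 144, 89, 73 and 104 listed sites in the 5 *At*GRP7-GFP libraries. *MT2B* had 46, 51, 33, 26 and 14, and *MT3* had 30, 41, 20, 16 and 44. The libraries with the most sites in all, replicates 1 and 2, had the most in *MT2A* and *MT2B*, whereas *MT3* had most in replicate 5. In bulk tissue, fewer cells that express a gene and less of its RNA per cell cannot be told apart, and sites were not scaled to transcript levels.

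None of the 5 GFP-only libraries at LL36 listed a site in any of the 5 genes, so that the groups did not overlap for *MT2A*, *MT2B* or *MT3*. On the log2(sites + 1) scale the difference was 6.77 for *MT2A*, 5.001 for *MT2B* and 4.86 for *MT3*. Each reached p = 0.00794, the lower limit of a two-sided exact permutation test of 5 against 5 libraries, and an adjusted p of 0.0482 by the exact permutation test with Benjamini-Hochberg adjustment over 4497 transcripts. Of these transcripts 741 (16.5%) passed the same threshold, all with no overlap between the groups. The call rests on all 10 libraries, since without any of them the smallest adjusted p in these exact permutation tests was between 0.0712 and 0.0963, and no transcript passed.

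The controls were shallow, and this bears directly on the members. With the share of sites that the *At*GRP7-GFP libraries gave to *MT2A* (1.68 to 3.28 per 1000 listed sites), the 428 sites of all GFP-only libraries at LL36 would hold 0.717 to 1.41 sites of *MT2A*. For *MT2B* and *MT3* the corresponding numbers lie between 0.124 and 0.521. A lower share of sites in GFP-only plants was therefore not detectable at this depth. Scaled to listed sites, with 0.5 sites added to every value, the differences turned to -1.82 for *MT2A*, -3.60 for *MT2B* and -3.74 for *MT3*, as an unlisted transcript in a library of 21 sites still receives the added 0.5.

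The *At*GRP7 R49Q-GFP libraries held 1 site in the 5 genes. It lay in the 3′ UTR of *MT3* (chr3:5180734, an adenosine, with 2 crosslinks) in LL24 replicate 2, the deepest control library with 2721 sites. The same position was listed in 2 of 3 *At*GRP7-GFP libraries at LL24, with 3 and 2 crosslinks, and was reproducible there. For all 3 genes together the *At*GRP7-GFP libraries at LL24 gave 3.19, 3.91 and 4.56 sites per 1000 listed sites, and this control library 0.368. At those shares the 3219 sites of the 3 *At*GRP7 R49Q-GFP libraries at LL24 would hold 10.2 to 14.7 sites in the 3 genes.

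Neither small comparison could reach significance. Against *At*GRP7 R49Q-GFP at LL36, all 3 genes had every *At*GRP7-GFP library above both controls, as had 743 of 4454 transcripts (16.7%), and the exact permutation test gave p = 0.0952, its lower limit for 5 against 2 libraries. At LL24, with 3 libraries against 3 and a smallest p of 0.1, the groups did not overlap for *MT2A* (22 to 51 sites) and *MT3* (3 to 21 sites). This was the case for 307 of 1512 transcripts (20.3%) against GFP-only and for 285 of 1732 (16.5%) against *At*GRP7 R49Q-GFP. *MT2B* had 10, 8 and 0 sites at LL24 and overlapped with both controls (exact permutation test, p = 0.4).

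**Figure D1:**
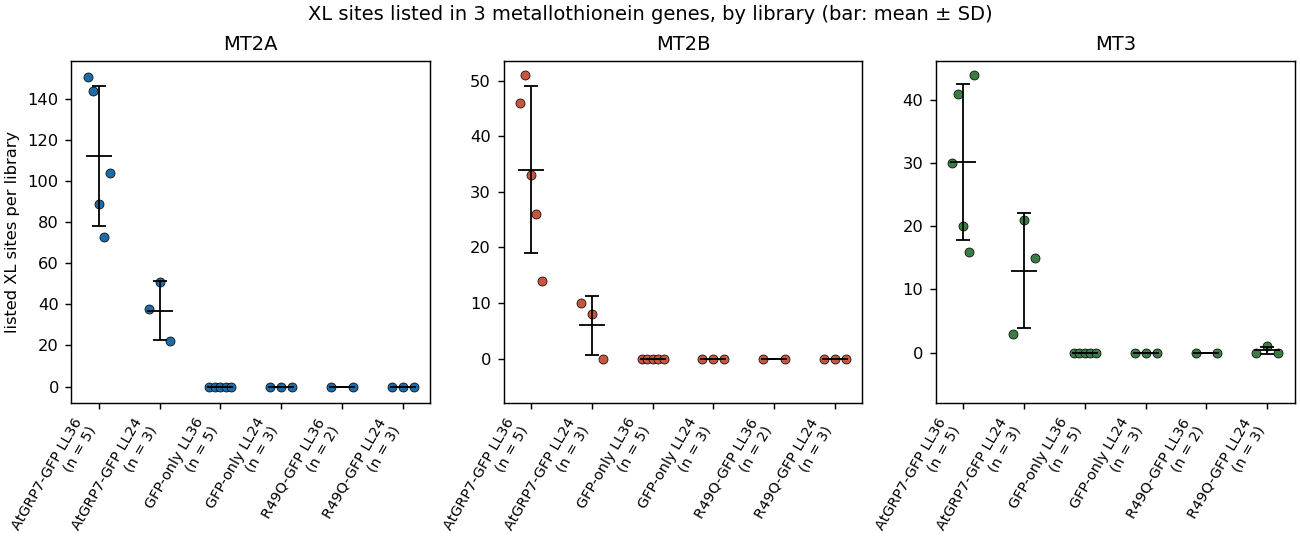
Listed XL sites per library (y axis) in *MT2A*, *MT2B* and *MT3* for the 6 groups (x axis), with 1 point per library and bars for the mean ± SD. The 5 *At*GRP7-GFP libraries at LL36 lie at 73 to 151 sites in *MT2A*, 14 to 51 in *MT2B* and 16 to 44 in *MT3*, and 1 of the 13 control libraries has a site.

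Reproducible sites were found in the same 3 genes at both time points. At LL36 there were 76 in *MT2A*, 18 in *MT2B* and 17 in *MT3*, 111 in all, and 827 of 4435 transcripts with a listed site (18.6%) had a reproducible one. At LL24 there were 35 in *MT2A*, 1 in *MT2B* and 13 in *MT3*, 49 in all, and 471 of 1418 transcripts (33.2%) had one. Of the 827 transcripts, 396 (47.9%) had a reproducible site at LL24 too. Of the 35 positions in *MT2A* at LL24, 34 were also reproducible at LL36, as were 11 of the 13 in *MT3* and the 1 in *MT2B*. The number at LL24 rested on its libraries, with 19 sites without replicate 2 and 30 without replicate 1, and *MT2B* had none in either case.

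Per length of the spliced transcript, *MT2A* had 7.89 reproducible sites per 100 nt at LL36, which ranked 60 among 822 transcripts with a length, where the median was 0.623. *MT2B* had 3.15 per 100 nt (rank 146) and *MT3* 2.93 (rank 160). At LL24 the ranks among 467 transcripts were 80 for *MT2A*, 117 for *MT3* and 376 for *MT2B*.

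**Figure D2:**
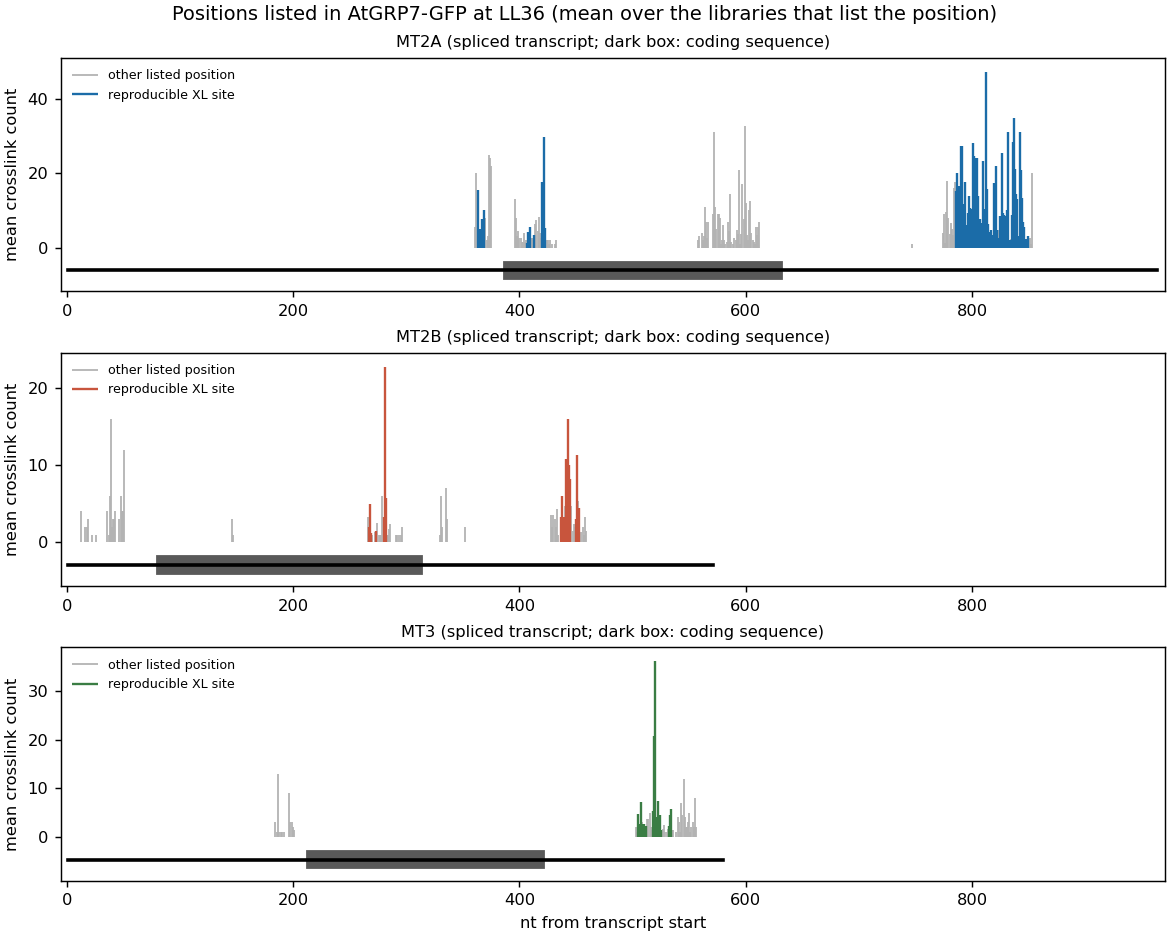
Mean crosslink count (y axis) at each position listed at LL36 in *At*GRP7-GFP plants, over the libraries that list it, along the spliced transcript in nt from its start (x axis). Coloured lines are reproducible sites, grey lines the other listed positions, and the dark box is the coding sequence. The reproducible sites form 3 groups in *MT2A*, 2 in *MT2B* and 1 in *MT3*.

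The 111 reproducible sites at LL36 fell into 6 groups when positions within 10 nt were merged. In *MT2A*, which encodes a type 2 protein of 81 codons with 14 cysteine codons (chr3:2889406-2890574), they formed 1 group in each exonic region. The 3′ UTR group was by far the longest. It covered 62 of 64 consecutive bases, from 154 to 217 nt after the stop codon in a 3′ UTR of 331 nt, and 52 of the 62 were listed in all 5 libraries. The highest site of this group, shown above, had 74, 76, 29, 26 and 31 crosslinks. Its mean was 47.2 ± 25.5 (SD, n = 5), and the deepest libraries, replicates 1 and 2, had the highest counts. The highest site more than 20 nt away lay 25 nt downstream and had 53, 48, 13, 30 and 30 crosslinks. In LL36 replicates 4 and 5 the highest site was found here or 1 base beside it, and in the other 3 libraries at LL36 it was the former site.

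Counts rose and fell along this group in a like way in all libraries. Over the 52 positions listed in all 5, the correlation between libraries lay between 0.642 and 0.867 in the 10 pairs (Pearson's r, median 0.698), as a description, since neighbouring positions share the sequence and the reads around them. Uridines made up 42.2% of the 64 bases, and 43.5% of the reproducible sites lay on a uridine, as nearly every base was a site. In contrast, uridines took 64.9% ± 1.13 (SD, n = 5) of the crosslinks, with 63.6% to 66.2% in single libraries. Most bases of this stretch were thus listed, but the counts were unequally spread over them.

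The coding group of *MT2A* comprised 8 sites from 20 to 36 nt after the first base of the start codon. The highest of these 8 sites had 37, 48, 17 and 17 crosslinks in LL36 replicates 1, 2, 4 and 5 and was not listed in replicate 3. The 5′ UTR group comprised 6 sites from 24 to 18 nt upstream of the start codon, all within 10 nt of the pentamer UCUUC. The highest of these 6 sites had 17, 21, 7, 11 and 21 crosslinks, 15.4 ± 6.23 on average (SD, n = 5), and in the other annotated model of *MT2A* this base lies in an intron. At LL24 none of the 3 libraries listed a site in the coding exons or the 5′ UTR of *MT2A*, and all of its 38, 51 and 22 sites lay in the 3′ UTR.

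*MT2B*, the other type 2 gene (chr5:506498-507244, 77 codons with 14 cysteine codons), had 7 reproducible coding sites and 11 reproducible 3′ UTR sites, each within 17 nt. The 3′ UTR sites lay from 123 to 139 nt after the stop codon in a uridine- and guanosine-rich stretch, 9 of the 11 on a uridine, and the highest had 20, 24, 10 and 10 crosslinks in LL36 replicates 1, 2, 3 and 5. Its regions were listed in some libraries and not in others. The authors determined significance in each transcript region separately, so that an unlisted region may have had crosslinks. LL36 replicate 4 listed no 3′ UTR site but 12 coding sites and 14 in the 5′ UTR, whereas replicate 5 listed 14 in the 3′ UTR and none elsewhere. At LL24, replicate 1 had 9 sites in the 3′ UTR and 1 in the coding exons, replicate 2 had 8 in the coding exons only, and replicate 3 had none. No position of *MT2B* was listed in all 5 libraries at LL36.

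The 5′ UTR of *MT2B* contains the pentamer UCUUC 3 times, and sites there were listed in LL36 replicates 3 and 4. The 5 positions of replicate 3 and the 14 of replicate 4 did not coincide, so that all 19 were listed in a single library. The highest, with 16 crosslinks in replicate 4, lay on a uridine of such a pentamer.
MT2B 5′ UTR (chr5:507196-507216): aagaucaucuUcauaaaucuu

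*MT3*, a type 3 gene of 69 codons with 12 cysteine codons (chr3:5180667-5181537), had reproducible sites in its 3′ UTR only. The 17 sites at LL36 and the 13 at LL24 covered the same 30 bases, from 83 to 112 nt after the stop codon in a 3′ UTR of 158 nt. The highest site, a guanosine, had 61, 71, 12, 7 and 30 crosslinks at LL36. At LL24 it was not listed in replicate 1 and had 27 and 1 crosslinks in replicates 2 and 3. It took up to 31.6% of the crosslinks that *MT3* had in a library at LL36. In the coding exons no library listed a site at LL36 and 1 library listed 1 at LL24, and in the 5′ UTR LL36 replicates 1 and 2 listed 3 and 11 sites, with 2 positions in common. Its 5′ UTR site with the highest count (13 crosslinks in replicate 2) also lay on a uridine.
MT3 5′ UTR (chr3:5181341-5181361): cuaaacauccUuuaaagccuu

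**Figure D3:**
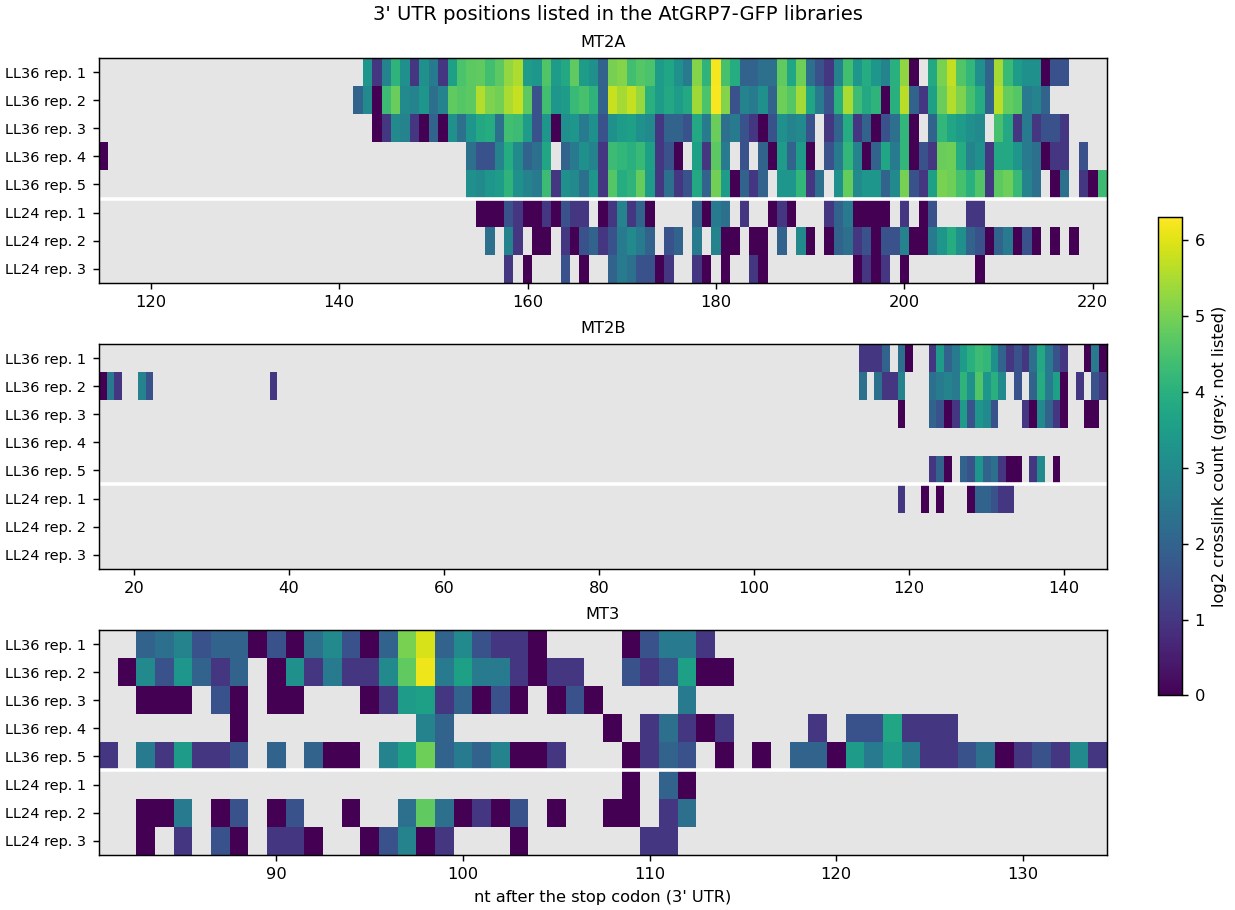
Crosslink counts (colour, log2 scale) at the 3′ UTR positions listed in the 5 LL36 and 3 LL24 libraries of *At*GRP7-GFP plants (rows), against the distance from the stop codon in nt (x axis), with grey for positions not listed. The block of *MT2A* from 154 to 217 nt has listed positions in all 8 libraries, with gaps at LL24, where the 3′ UTR had 38, 51 and 22 sites, while *MT2B* is grey in LL36 replicate 4 and in LL24 replicates 2 and 3.

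In all 3 genes the reproducible 3′ UTR sites at LL36 lay in 1 stretch within the annotated 3′ UTR. They began at 46.5%, 47.9% and 52.5% of its length in *MT2A*, *MT2B* and *MT3* and ended at 65.6%, 54.1% and 70.9%. Positions along the 3′ UTR were not compared with those over all transcripts. Of the reproducible sites of the 3 genes at LL36, 81.1% (90 of 111) fell in the 3′ UTR, 13.5% in coding exons, 5.41% in the 5′ UTR and none in introns. Over all transcripts the 3′ UTR held 48.5% of 18951 placed sites and coding exons 35.8%. Of the 90 sites, 62 lay in the single stretch of *MT2A*, so that the share of 81.1% rests largely on neighbouring bases. When sites within 10 nt were merged, each of the 3′ UTRs held 1 group. The coding exons of *MT2A* and *MT2B* held 1 group each, and the 5′ UTR of *MT2A* held 1. Sites over all transcripts were not merged.

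Relative to its length, the 3′ UTR of *MT3* had more sites than its coding exons in all 5 libraries at LL36. The mean log2 ratio of the densities was 6.13 ± 0.55 (SD, n = 5, with 0.5 sites added; p = 0.0625 in the exact sign-flip permutation test, its lower limit with 5 libraries). As no coding site was listed, the size of this ratio depends on the added 0.5, and it was 1.995 when sites within 10 nt were merged. For *MT2A* at LL36 the ratio was 0.99 ± 1.20 (SD, n = 5) and above 0 in 3 of 5 libraries (exact sign-flip permutation test, p = 0.25), and it turned to -0.87 after merging. LL36 replicates 1 and 2 had 66 and 55 coding sites beside 74 in the 3′ UTR, whereas replicates 3 and 4 had 11 and 9 beside 71 and 61. For *MT2B* at LL36 the ratio was 0.30 ± 3.38 (SD, n = 5), and without replicate 5 it turned to -0.80.

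**Figure D4:**
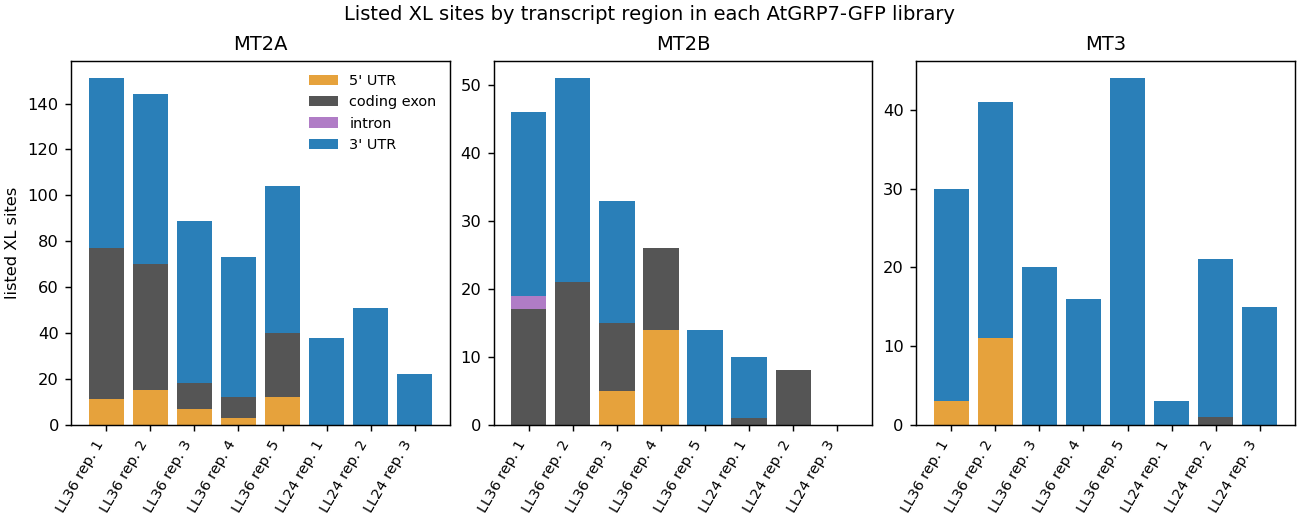
Number of listed XL sites (y axis) of *MT2A*, *MT2B* and *MT3* by transcript region (colours) in each *At*GRP7-GFP library (x axis). In *MT2A* coding and 5′ UTR sites appear at LL36 and not at LL24, and in *MT2B* the regions differ from library to library.

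In *MT2A* the LL36 libraries listed 9 to 66 coding sites and the LL24 libraries 0. The log2 ratio of 3′ UTR to coding density at LL24 (5.72 ± 0.61, SD, n = 3) was therefore set by the added 0.5 and the 3′ UTR sites, as was the difference of -4.73 between the time points, and neither is a measured size. The ratios did not overlap between the time points (p = 0.0357, the lower limit of an exact permutation test of 5 against 3 libraries, and 0.0536 after adjustment over the 3 genes). Depth moved with time: the LL24 libraries listed 8109 to 25115 sites. LL36 replicates 3 and 4, with 27112 and 29942 sites, listed 11 and 9 coding sites of *MT2A*, and LL24 replicate 2, with 25115 sites, listed none. Over the whole of *MT2A*, these 3 libraries had 579, 556 and 188 crosslinks, out of 109755, 122202 and 98235 listed crosslinks in all. The part of depth in the difference was not tested.

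*MT2A* had a higher site density than its paralog *MT2B* in all 8 libraries. The log2 ratio of listed sites per 100 nt was 1.61 ± 1.37 (SD, n = 8, range 0.66 to 4.74), with p = 0.00781, the lower limit of an exact sign-flip permutation test over 8 libraries, and 0.0234 after adjustment over the 3 pairs of genes. The highest ratio came from LL24 replicate 3, which listed no site in *MT2B*, so that its size depends on the added 0.5. Without this library the mean was 1.16. In the coding exons alone the ratio was 0.33 (exact sign-flip permutation test, p = 0.766). *MT2A* was also above *MT3* in 7 of 8 libraries (log2 ratio 1.13 ± 0.88, SD, n = 8; adjusted p = 0.0234 over the same pairs, exact sign-flip permutation test). The order of *MT3* and *MT2B* was not settled, with a ratio of 0.48 ± 2.101 (SD, n = 8, exact sign-flip permutation test, p = 0.664), which also includes LL24 replicate 3. The comparisons with *MT3* were added after the values had been seen.

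The coding sequences of *MT2A* and *MT2B* were identical at 83.8% of 234 aligned bases, yet no reproducible coding site of *MT2A* lay opposite one of *MT2B* in the alignment. The 16-nt stretch GGAUCUGNCUGCAAGU, the longest part that the coding windows shown above share when 1 base may differ (N), occurs 2 times in each gene, at either end of the coding sequence, where it encodes part of the cysteine-rich ends of the protein. It was searched on the sense strand after the windows had been seen, and among the spliced transcripts of 36297 genes it occurs in these 2 only (0.00551%). The 4 copies are shown with the uridine in capitals at which the crosslinks were counted.
MT2A copy 1 (chr3:2890143-2890158): ggaucUggcugcaagu
MT2A copy 2 (chr3:2889760-2889775): ggaucUgacugcaagu
MT2B copy 1 (chr5:507119-507134): ggaucUgccugcaagu
MT2B copy 2 (chr5:506778-506793): ggaucUgacugcaagu
The variable base differs between the first copies, and the second copies are identical.

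Of the reproducible coding sites, 4 of 8 in *MT2A* lay in copy 1 and 3 of 7 in *MT2B* in copy 2, and the others lay outside the copies. In *MT2A*, the uridine of copy 1 was the highest of the reproducible coding sites (4 of 5 libraries at LL36, 29.8 ± 15.4 crosslinks, SD, n = 4). The uridine of copy 2 had 40, 51 and 7 crosslinks in LL36 replicates 1, 2 and 3 and was not listed in replicates 4 and 5, so that it was not reproducible, although its mean over these 3 libraries (32.7) was above that of copy 1. In *MT2B*, copy 2 was the reproducible one, with 36, 27, 12 and 16 crosslinks in LL36 replicates 1 to 4 (22.8 ± 10.9, SD, n = 4) and 10 in LL24 replicate 2. Copy 1 of *MT2B* was listed in none of the 8 libraries. The 20 nt that follow the uridine, where reads would start, occur 1 time in the genome for each of the 4 copies. A base that lies 35 nt after the start codon in both genes was thus reproducible in *MT2A* and not listed in *MT2B*.

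**Figure D5:**
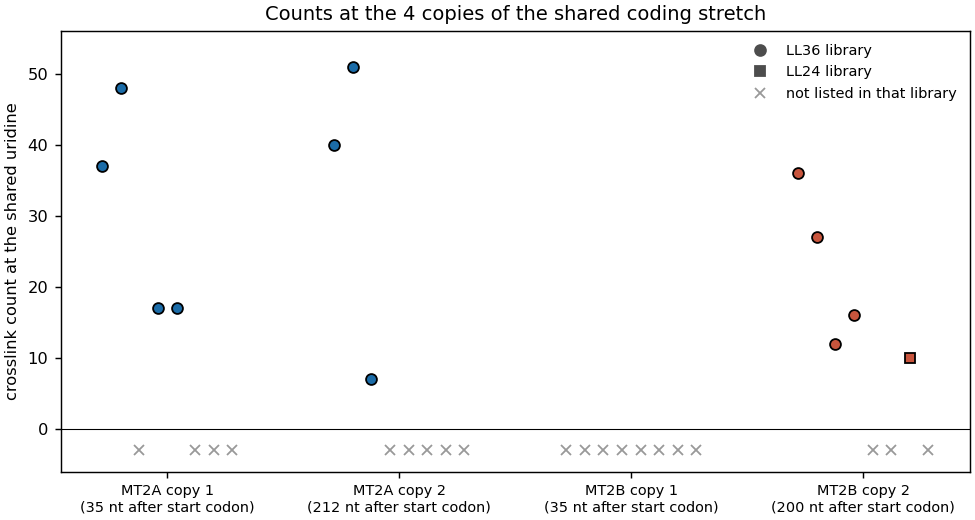
Crosslink count (y axis) at the shared uridine in the 4 copies of the 16-nt coding stretch of *MT2A* and *MT2B* (x axis), with 1 symbol per *At*GRP7-GFP library and crosses below 0 for libraries that do not list the position. Copy 1 and copy 2 of *MT2A* reach 48 and 51 crosslinks, copy 2 of *MT2B* reaches 36, and copy 1 of *MT2B* has crosses only.

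The 3′ UTRs of *MT2A* and *MT2B* aligned over 235 bases with 71.9% identity, which is close to the 72.6% between the 3′ UTRs of *MT2A* and *MT3*, genes of different types. In this alignment 7 of the 11 reproducible 3′ UTR sites of *MT2B* lay opposite one of the 62 of *MT2A*, which fill nearly every base of their stretch. The number was not particular to the type 2 pair. Between *MT2B* and *MT3* (11 and 17 sites) 7 sites coincided, and between *MT2A* and *MT3* 6.

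Among the 111 reproducible sites at LL36, 49.5% lay on a uridine, against 58.1% of 19165 sites over all transcripts, and 18.9% on a guanosine, against 9.96%. Within 10 nt of the sites, pyrimidines made up 55.9% of the bases in the 3 genes and 61.0% over all transcripts. In coding exons the share was 38.4% in the 3 genes and 61.6% over all. The hexamer UUCUGG was within 10 nt of none of the 111 sites, against 1.15% over all transcripts, and UCUUC within 10 nt of 8 (7.21%, against 11.1%). Both motifs were searched on the sense strand. Sites within a group share most of their bases, so that these shares describe 6 stretches of sequence rather than 111 separate ones.

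No difference between LL36 and LL24 was detected in the share of all listed sites that fell in the 3 genes. *MT2A* had 2.07, 1.68, 3.28, 2.44 and 2.16 sites per 1000 listed sites at LL36 and 2.91, 2.03 and 2.71 at LL24. The difference of the log2 shares (LL36 minus LL24, with 0.5 sites added) was -0.17 for *MT2A*, 1.37 for *MT2B* and -0.34 for *MT3*. None of the 3 was among the 306 of 1374 transcripts (22.3%) with an exact permutation p below 0.05, and no transcript passed after adjustment, where the smallest adjusted p of the exact permutation test was 0.16. The groups overlapped for all 3 genes, and the median difference over the 1374 transcripts was 0.90.

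The crosslinks of *MT2A*, in contrast, did not overlap between the time points. Per 1000 listed crosslinks it had 5.01 ± 0.44 at LL36 (SD, n = 5, range 4.54 to 5.48) and 1.82 ± 0.12 at LL24 (SD, n = 3, range 1.69 to 1.91), which is 2.74-fold more. The exact permutation test gave p = 0.0357, the smallest for 5 against 3 libraries, and an adjusted p of 0.148 over 1374 transcripts, of which 331 (24.1%) had an exact permutation p below 0.05. The median log2 difference over these transcripts was 1.22, compared with 1.45 for *MT2A*. Restricted to the 3′ UTR, *MT2A* had 3.49 to 4.71 crosslinks per 1000 at LL36, again above LL24. *MT2B* had 0.231 to 0.948 at LL36 and 0 to 0.544 at LL24, and the groups overlapped. Its log2 difference of 2.14 (exact permutation test, p = 0.107) includes LL24 replicate 3, which listed no site. *MT3* had 0.426 to 0.947 at LL36 and 0.131 to 1.14 at LL24, and the groups overlapped.

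In the share of sites over the 8 libraries, *MT2A* was most like *ESM1* (AT3G14210, Pearson's r = 0.9498), *CYCD4;1* (AT5G65420, r = 0.941) and AT5G46430 (r = 0.895) among 395 transcripts with reproducible sites at both times. *MT3* was most like AT2G18938 (r = 0.923), *PRXQ* (AT3G26060, r = 0.867) and *LHCB5* (AT4G10340, r = 0.864). These correlations are descriptions over 8 libraries that share their depth between genes, and the median r of all 395 was 0.147 for *MT2A* and 0.0937 for *MT3*. The log2 share of *MT2A* itself had r = -0.728 with the log2 of the listed sites of the library, and that of *MT3* r = -0.3795. Whether the likeness to other transcripts follows depth was not tested.

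Of 34 other genes for metal binding and transport, among them phytochelatin synthases, copper chaperones, heavy metal ATPases, nicotianamine synthases and the metallothioneins *MT1B*, *MT4A* and *MT4B*, 17 had a listed site in *At*GRP7-GFP plants. A reproducible site was found in 1 of the 34, *FER1* (AT5G01600), which encodes a ferritin that stores iron in plastids. It had 44 reproducible sites at LL36 and 136, 133, 43, 70 and 93 listed sites per library, but 0, 13 and 0 at LL24. Of the 34 genes 2 had a site in a control library, *FER1* among them, in 1 of the 13. Among the 17 genes with a listed site at either time point, 1 had a reproducible one, compared with 18.6% of all transcripts with a listed site at LL36.

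For *MT1A* and *MT1C* the length over which reads can be placed limits what could be seen. Both encode type 1 proteins of 45 codons with 13 cysteine codons, and their coding sequences were identical at 131 of 138 bases. The model of *MT1A* used here has no UTRs, so that its 138 annotated bases are the coding sequence alone. Of the 20-nt reads that can start in these 138 bases, 26.9% occur 1 time in the genome and the transcripts, and 58.4% of 50-nt reads. For the spliced transcript of *MT1C*, with its UTRs (577 nt), this was 88.5% and 100%. In *MT2A*, *MT2B* and *MT3* it was at least 98.4% at 20 nt. Only uniquely mapped reads were counted by the authors, so that a missing site in the coding sequence of *MT1A* says little. UTRs of *MT1A* were not assessed. For *MT1C* most of the transcript could have carried sites. How far either gene was expressed in these plants was not tested.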

How the data were processed

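The iCLIP lists of 21 libraries were used, each mapped to its group by its label. According to the methods and labels, the authors trimmed reads with cutadapt 1.9.1, removed PCR duplicates by random barcodes, mapped uniquely to TAIR10 with STAR 2.5.2a, and deposited raw crosslink counts, without scaling, at positions with a false discovery rate below 0.05 within their transcript region. Unlisted positions are not counts of 0. Depth is given in the report as listed sites per library.

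Sites were matched by position, strand and gene, and placed on TAIR10.1 models. Exact permutation and sign-flip tests doubled the smaller tail and were tested on simulated data. The Benjamini-Hochberg method covered all transcripts with a site in the groups compared or, for LL36 against LL24, those with a site in at least 4 *At*GRP7-GFP libraries (Python 3.11.15, numpy 2.4.6, scipy 1.17.1, biopython 1.88). A pseudocount of 1 or 0.5 sites was added on log scales. The study's methods call the libraries independent biological replicates and state that several plants were bulked for each. The members, the list of metal genes, the naming rule and the alternatives were chosen with earlier results of these data known. Genes named besides the members are those of the metal list with a reproducible site and the 3 most like *MT2A* and *MT3*. Alternatives were the required libraries, position tolerance, count minimum, merging, scaling, pseudocount, filter, replicate block and leaving out each library. RNA-seq and RIP-seq of the study were not analysed here.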

Additional observations from a re-analysis of the deposited data

Results flagged for a closer look

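The log2 ratio of *MT2A* to *MT2B* site density was 2.095 in LL36 replicate 5, far from the other 4 libraries at LL36, in which *MT2B* had more than its 14 sites. Of 13 sets of 5 values tested for a single distant value, this was the only such case. Chance gives such a value in about 1 of 20 sets, so that 1 case in 13 sets is not unusual.

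The log2 ratio of 3′ UTR to coding density differed between LL36 and LL24 by -4.73 in *MT2A* and by 1.87 in *MT3* (exact permutation test, p = 0.0357 each and 0.0536 after adjustment over 3 genes). In *MT2A* no coding site was listed at LL24, and in *MT3* none at LL36 and 1 at LL24, so that the sizes depend on the added 0.5. Where *MT3* had no coding site, its ratio follows the 3′ UTR sites alone. Their numbers overlapped between the time points, with 16 to 44 at LL36 and 3 to 20 at LL24. The separation of the *MT3* ratios thus depends on the 1 coding site in LL24 replicate 2. Its p-value is not a measure of a change in the use of regions.

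Inside the bounds of *MT1A* (chr1:2338904-2339321) 19 entries were listed under the name AT1G07590, a gene that overlaps *MT1A* on the same strand, and they are not counted above. There were 8 in *At*GRP7-GFP LL24 replicate 2 and 11 in LL36 replicate 2, at 12 positions of which 7 were in both libraries, with 46 crosslinks in all and none in a control library. The highest lay 9 nt after the first base of the *MT1A* start codon. It had 7 crosslinks on average and is shown with the XL base in capitals, since these entries are the only signal on the annotated *MT1A* sequence.
MT1A start (chr1:2339302-2339322): aauggcagauUcuaacugugg
Which of the 2 overlapping transcripts was crosslinked cannot be told apart.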

How the results depend on the processing

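With all 5 libraries required, 61 sites in 2 genes were reproducible at LL36, and with all 3 at LL24 17 sites in 2 genes, *MT2B* being lost each time. A tolerance of 3 nt gave 177 sites at LL36 and 83 at LL24, a tolerance of 1 nt 75 at LL24, 1 library of 3 gave 102, at least 2 crosslinks gave 27 at LL24, and merging within 10 nt left 6 and 3 groups. Without 1 library, LL24 had 19 to 34 sites in 2 to 3 genes, with 19 without replicate 2, 30 without replicate 1 and 34 without replicate 3.

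Against GFP-only at LL36, 0 transcripts passed without any 1 library, 4452 per 1000 listed sites and 4167 scaled to uniquely mapped reads, where the added 0.5 weighs most in shallow libraries. The differences were then -1.82 (*MT2A*), -3.60 (*MT2B*) and -3.74 (*MT3*) per 1000 sites, and 0.58, -1.20 and -1.34 scaled to reads. With the replicate number as a replicate block, 0 transcripts passed, as the 3 genes had p = 0.0625 (exact sign-flip permutation test, its lower limit; 0.378 adjusted). Whether the numbers pair the libraries was not settled. The correlation of same-numbered deviations was between -0.0983 and 0.0210 across genotypes, and -0.0521, 0.339 and 0.311 between LL36 and LL24. Across genotypes no library correlated best with its own number, but the shallow control libraries could hardly show a pairing. Between LL36 and LL24, replicate 3 correlated best with its own number and replicates 1 and 2 did not.

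For LL36 minus LL24, 658 transcripts had an exact permutation p below 0.05 with no filter, 91 with a site in all 8 libraries, and 0 with the replicate block or without any 1 library, where the lower limit of p is above 0.05. Crosslinks in place of sites turned the difference to 1.45 for *MT2A* (1.11 in the 3′ UTR, added after the values were seen) and 0.25 for *MT3*. Without 1 library, *MT3* lay between -1.09 and 0.32, the latter without LL24 replicate 3.

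The log2 ratio of 3′ UTR to coding density of *MT2A* was 2.24 at LL36 and 7.08 at LL24 in crosslinks, and -0.87 and 1.16 after merging, which makes 1 group of the long 3′ UTR stretch. For *MT3* it was 8.31 in crosslinks and 1.995 merged at LL36, and 1.47 merged at LL24. For *MT2B* at LL36 it was -0.038 merged and -0.80 to 1.57 without 1 library, and at LL24 -2.18 to 1.20. *MT2A* minus *MT2B* fell to 0.33 in coding exons, and kept its direction and its side of the threshold in the other 10 alternatives. At the depth of the GFP-only libraries a lower share of sites in the 3 genes was not detectable.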
